A study of Mus musculus with 12 samples.

Results

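Mitosis is run by a large set of proteins whose genes are switched on together late in the cell cycle, and 50 of these genes are described here in the blood-forming clusters of the mouse embryo. The 50 were taken as a fixed list of symbols for spindle, kinetochore and cytokinesis proteins, and each was looked up among the 24138 gene rows of every deposited table. All 50 were found, each on 1 row, and all 50 were tested by the authors in each comparison. The cells came from the intra-aortic haematopoietic clusters, which bud from the wall of the embryonic aorta in the aorta-gonad-mesonephros (AGM) region of C57BL/6 embryos, and were sorted as SSEA-1-, CD31+ and CD117+.

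RNA sequencing covered 12 samples in 4 groups of 3. These were S/G2/M cells (mAG+, from Fucci Green animals) and G1 cells (mKO2+, from Fucci Red animals) at E11.5, and the same sorts at E10.5, where the number is the day of gestation. Every group carried a Fucci reporter, a fluorescent protein that is degraded outside its own part of the cell cycle, and because the phases came from different reporter strains, phase and strain cannot be told apart. The values are the authors' group values in FPKM, fragments per kilobase of transcript scaled for the mapped total. Each deposited table holds 1 value for a gene in a group, and the scaling differed between tables. No spread between samples can therefore be given, and the depth is unknown. "Rose" and "fell" are used here of a q-value under 0.05 in the authors' deposited table. In the phase tables used here, the lowest q-value was 0.0102 at E11.5 and 0.0101 at E10.5. Nothing in the labels ties the 3 samples of each group to separate litters, so these q-values reflect at most the spread between samples, which may be technical.

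The sort genes were present in all groups. Pecam1, which encodes CD31, had 69.9 FPKM in S/G2/M cells and 111 FPKM in G1 cells at E11.5, and 30.2 FPKM in S/G2/M cells and 39.8 FPKM in G1 cells at E10.5. Kit, which encodes CD117, had 28.9 and 16.9 FPKM in S/G2/M and G1 cells at E11.5, and 12.7 and 15.1 FPKM in those at E10.5. Markers of other cells moved with the comparisons too. The 12 neuronal markers summed to 108 FPKM in S/G2/M cells and 544 FPKM in G1 cells at E10.5, where 7 of them fell in S/G2/M cells, and to 94.9 and 172 FPKM at E11.5, where none passed and, in the authors' deposited table, 6 were lower with p under 0.05 before adjustment. The 12 macrophage markers summed to 607 FPKM in S/G2/M cells and 2199 FPKM in G1 cells at E11.5, where 7 fell in S/G2/M cells, and to 177 and 296 FPKM at E10.5, where none passed. Of 10 erythroid markers 2 fell in S/G2/M cells at E11.5, where the list summed to 3041 FPKM in S/G2/M cells and 11763 FPKM in G1 cells, and none passed at E10.5, where it summed to 19200.3 and 15057 FPKM. Of 10 mesenchymal markers none passed between the phases, with sums of 59.3 FPKM in S/G2/M cells and 62.7 FPKM in G1 cells at E11.5 and of 256 and 244 FPKM at E10.5. None of these markers was at 0 in any group. The part of these cells in the results below was not tested, and in sorted bulk samples fewer cells of a type and less RNA per cell cannot be told apart.

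As background, a dividing cell condenses its chromosomes, builds a bipolar spindle, attaches each chromosome to it through the kinetochore, and holds back separation until the spindle checkpoint is satisfied. Separase then cuts cohesin, the anaphase-promoting complex marks cyclins and other proteins for destruction, and the central spindle guides the cleavage furrow. In many vertebrate cells the genes concerned are kept low in G1 by the DREAM complex and raised in G2 by B-Myb and FoxM1, through a cell cycle homology element (CHR) near the start site that is often accompanied by CCAAT boxes (Y boxes) bound by NF-Y.

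Promoter windows were therefore read from RefSeq (GRCm38.p6), each reaching from 250 bases before to 50 bases after the annotated start. The window was found for 44 members, with Sgol1 listed as Sgo1, and not for Aurkb, Incenp, Kif20a, Smc4, Spc24 and Tpx2. The search was for TTTGAA or TTTAAA (CHR) and CCAAT, on both strands, and the first listed window of each gene was used. A CHR was present in 36 of 44 member windows (81.8%), against 27.8% of the windows of all 27025 genes. CCAAT was present in 33 (75.0%), against 37.9% of all windows. Both stood in 30 member windows (68.2%), against 10.9% of all windows. In 31 member windows (70.5%) a CHR began within 50 bases of the start, against 8.24% of all windows.

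The 4 windows printed are those of the 3 members that rose in S/G2/M cells at both ages (Plk1, Top2a and Ube2c) and, for contrast, of Smc2, which had the smallest mean phase difference of the members above the median level that had a window. They run 5′ to 3′ on the gene's own strand, and capitals mark CHR and CCAAT matches on either strand. Plk1 lies at chr7:122159185-122159484 on the plus strand, Top2a at chr11:99024140-99024439 on the minus strand, Ube2c at chr2:164769679-164769978 on the plus strand and Smc2 at chr4:52438971-52439270 on the plus strand.
Plk1: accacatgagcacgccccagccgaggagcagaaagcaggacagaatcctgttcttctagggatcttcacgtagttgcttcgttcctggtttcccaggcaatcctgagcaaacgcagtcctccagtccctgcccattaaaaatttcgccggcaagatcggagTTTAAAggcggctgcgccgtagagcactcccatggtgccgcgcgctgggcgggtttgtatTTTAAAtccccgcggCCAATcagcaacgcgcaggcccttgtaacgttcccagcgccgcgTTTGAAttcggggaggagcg
Top2a: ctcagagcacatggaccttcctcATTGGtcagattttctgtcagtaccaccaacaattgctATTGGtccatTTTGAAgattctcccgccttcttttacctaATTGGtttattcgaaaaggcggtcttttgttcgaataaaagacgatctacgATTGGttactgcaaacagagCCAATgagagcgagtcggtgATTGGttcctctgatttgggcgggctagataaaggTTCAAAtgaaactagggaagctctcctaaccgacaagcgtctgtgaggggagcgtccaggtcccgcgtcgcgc
Ube2c: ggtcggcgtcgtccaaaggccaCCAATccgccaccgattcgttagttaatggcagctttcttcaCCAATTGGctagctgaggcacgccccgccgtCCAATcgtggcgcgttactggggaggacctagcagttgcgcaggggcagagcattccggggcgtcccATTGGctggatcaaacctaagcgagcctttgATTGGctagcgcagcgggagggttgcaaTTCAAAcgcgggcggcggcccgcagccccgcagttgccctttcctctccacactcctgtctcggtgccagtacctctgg
Smc2: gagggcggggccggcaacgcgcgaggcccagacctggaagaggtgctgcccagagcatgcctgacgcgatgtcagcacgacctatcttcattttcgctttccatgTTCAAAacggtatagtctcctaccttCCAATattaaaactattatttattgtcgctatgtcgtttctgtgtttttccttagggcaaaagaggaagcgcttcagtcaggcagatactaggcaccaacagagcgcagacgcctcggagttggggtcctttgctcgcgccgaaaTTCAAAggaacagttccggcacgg
Plk1 holds 3 CHR matches and 1 CCAAT match, Top2a 2 and 6, Ube2c 1 and 6, and Smc2 2 and 1. In Ube2c 2 of the CCAAT matches lie on opposite strands and overlap in 1 run of capitals. The CHR nearest to the start begins at base -29 in Plk1, where another begins at base 31. It begins at base -23 in Top2a, -29 in Ube2c and 27 in Smc2. Smc2 was 1.13-fold higher in S/G2/M cells at E11.5 and 1.51-fold higher at E10.5. The part of these motifs in the phase differences was not tested.

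Within the list, the 36 members with a CHR had a median log2 fold change (S/G2/M over G1) of 0.92 at E11.5 and 0.97 at E10.5, and the 8 without one had 0.93 and 0.76. The 33 members with CCAAT had medians of 0.96 at both ages, and the 11 without it had 0.55 at E11.5 and 0.77 at E10.5. The 8 windows without a CHR match were those of Bub1, Mad2l1, Ncaph, Nek2, Nuf2, Nusap1, Pttg1 and Sgol1. A match is a description of these letters and no proof of a site.

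**Figure D1:**
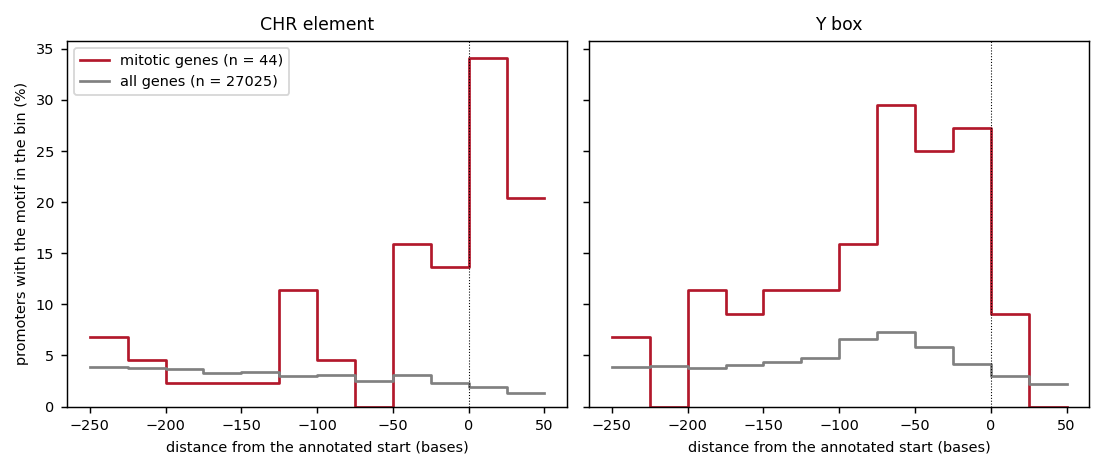
Share of promoter windows with a CHR element (left) or a Y box (CCAAT, right) beginning in each bin of 25 bases, by distance from the annotated start, for 44 mitotic genes and for all 27025 genes. In the mitotic genes the CHR share is highest in the first 25 bases after the start, at 34.1%, and the Y box share between 75 and 50 bases before it, at 29.5%.

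In S/G2/M cells most of the mitotic genes had higher levels than in G1 cells, typically somewhat under 2-fold. At E11.5, 48 of the 50 were higher in S/G2/M cells, and at E10.5 all 50 were, whereas 46.0% and 47.1% of all tested genes were higher at these ages. The median log2 fold change of the 50 was 0.88 at E11.5 and 0.95 at E10.5, beside -0.06 and -0.04 over all tested genes. At E11.5, 3 members rose and none fell, against 0.137% of all tested genes called higher and 0.564% called lower. At E10.5, 5 members rose and none fell, against 0.193% called higher and 0.462% called lower. Before adjustment, the authors' deposited tables gave p under 0.05 and a higher level in S/G2/M cells for 32 members at E11.5, against 3.32% of tested genes, and for 35 at E10.5, against 2.40%. At least 2-fold higher levels were seen for 18 members at E11.5, against 7.48% of tested genes, and for 23 at E10.5, against 7.36%.

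**Figure D2:**
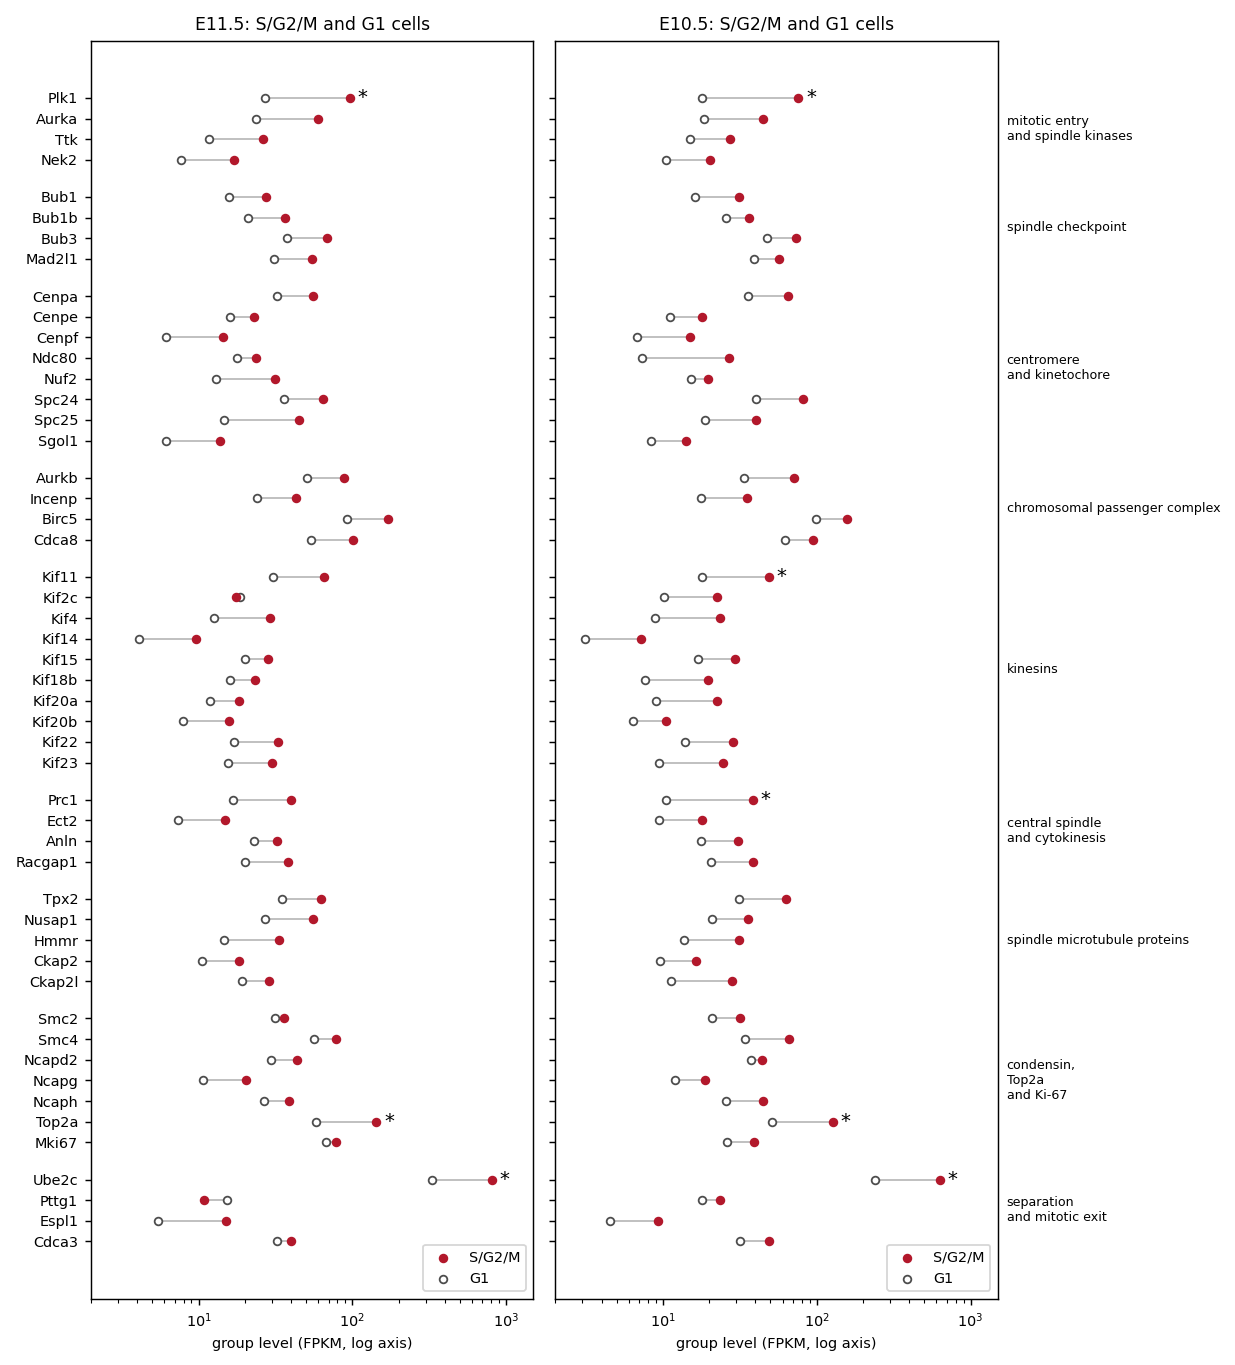
Group levels of the 50 genes in FPKM (log axis) in S/G2/M cells (filled) and G1 cells (open) at E11.5 (left) and E10.5 (right), ordered by role. An asterisk marks a q-value under 0.05 in the authors' deposited table, for 3 genes at E11.5 and 5 at E10.5, and at E11.5 Kif2c and Pttg1 are the genes whose filled point lies left of the open one.

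Among the mitotic kinases Plk1, which drives mitotic entry, spindle assembly and cytokinesis, rose most. It had 95.8 FPKM in S/G2/M cells and 26.8 FPKM in G1 cells at E11.5, and 76.1 FPKM in S/G2/M cells and 17.9 FPKM in G1 cells at E10.5, so both S/G2/M groups lay above both G1 groups. The difference was 3.57-fold at E11.5 (q = 0.0102 in the authors' deposited table) and 4.26-fold at E10.5 (q = 0.0101). Its gene lies on chromosome 7 (122159437 to 122169875, mm10). Aurka, the spindle pole kinase that Tpx2 activates, had 59.5 and 23.8 FPKM in S/G2/M and G1 cells at E11.5 and 44.4 and 18.4 FPKM in those at E10.5. Its differences of 2.5-fold and 2.41-fold did not pass, with q-values of 0.146 and 0.220 in the authors' deposited tables. Ttk, the checkpoint kinase also called Mps1, was 2.26-fold higher in S/G2/M cells at E11.5 and 1.83-fold higher at E10.5, and Nek2, a centrosome kinase, was 2.19-fold and 1.92-fold higher. For all 4 kinases, the authors' deposited tables gave p under 0.05 before adjustment at both ages.

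The spindle checkpoint genes lay in a narrow band at E11.5 and in a wider one at E10.5. Bub1, Bub1b, Bub3 and Mad2l1, which delay separation while a kinetochore is unattached, had log2 fold changes between 0.79 and 0.86 at E11.5 and between 0.49 and 0.96 at E10.5, and none passed. Their levels covered a wider range. Bub3, which also has roles outside mitosis, had 68.5 FPKM in S/G2/M cells and 37.6 FPKM in G1 cells at E11.5, and Bub1 had 27.6 and 15.8 FPKM. At E10.5 Bub3 had 73.3 and 47.3 FPKM in S/G2/M and G1 cells, and Bub1 had 31.3 and 16.1 FPKM.

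All 8 centromere and kinetochore genes were higher in S/G2/M cells at both ages, with medians of 1.01 at E11.5 and 0.94 at E10.5 on the log2 scale, and none passed. Cenpf, a large outer kinetochore protein, was 2.35-fold higher at E11.5, with 14.4 and 6.12 FPKM in S/G2/M and G1 cells, and 2.19-fold higher at E10.5, with 15.0 and 6.84 FPKM. Cenpa, the histone H3 variant that marks the centromere, was 1.71-fold and 1.81-fold higher. Cenpe, the kinesin that carries chromosomes to the spindle equator, was 1.44-fold and 1.62-fold higher, and Sgol1, which protects centromeric cohesin, 2.25-fold and 1.68-fold higher.

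The Ndc80 complex, the microtubule-binding rod of the kinetochore, is built of 4 proteins whose genes had different patterns over the groups. Ndc80 had 23.5 FPKM in S/G2/M cells and 17.8 FPKM in G1 cells at E11.5, against 26.7 FPKM in S/G2/M cells and 7.27 FPKM in G1 cells at E10.5. Its low value was thus that of E10.5 G1 cells. The difference was 1.32-fold at E11.5 and 3.68-fold at E10.5, with q-values of 0.859 and 0.0511 in the authors' deposited tables. Nuf2, with which Ndc80 pairs, showed the larger difference at the other age: it had 31.5 and 13.0 FPKM in S/G2/M and G1 cells at E11.5 (2.42-fold), and 19.6 and 15.2 FPKM at E10.5 (1.29-fold). The ratio of Ndc80 to Nuf2 FPKM was 0.747 in S/G2/M cells and 1.36 in G1 cells at E11.5, and 1.36 in S/G2/M cells and 0.479 in G1 cells at E10.5. Spc25 was 3.06-fold higher in S/G2/M cells at E11.5 and 2.16-fold higher at E10.5, and its partner Spc24 was 1.80-fold and 2.03-fold higher. Whether any of these phase differences itself differs between the ages could not be tested from group values.

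**Figure D3:**
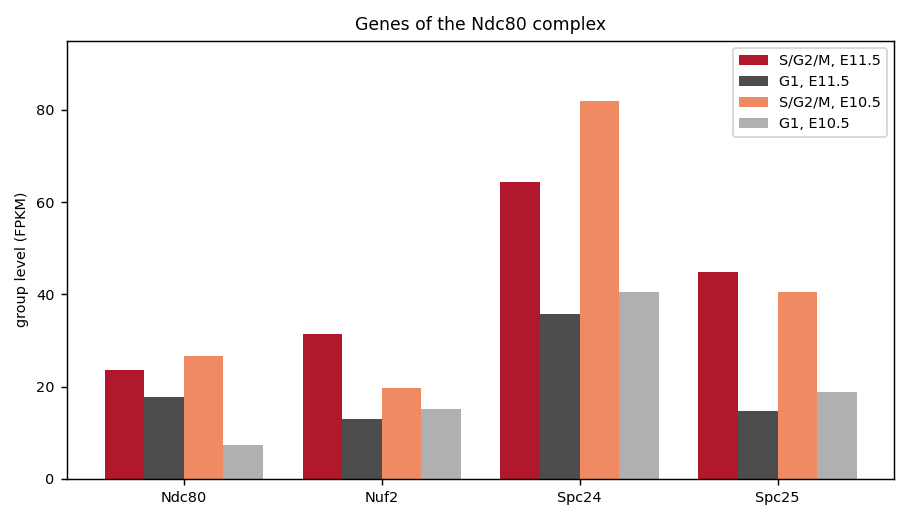
Group levels in FPKM of the 4 genes of the Ndc80 complex, each bar 1 group value, with S/G2/M and G1 cells at E11.5 and then at E10.5. Ndc80 is lowest in E10.5 G1 cells, at 7.27 FPKM, and Nuf2 is highest in E11.5 S/G2/M cells, at 31.5 FPKM.

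The chromosomal passenger complex, which corrects faulty attachments and later works at the midzone, was expressed at higher levels than most of the list. Birc5, which encodes survivin, had 172 FPKM in S/G2/M cells and 92.5 FPKM in G1 cells at E11.5, and 157 and 99.5 FPKM in those at E10.5. Cdca8, which encodes borealin, had 102 and 53.5 FPKM at E11.5 and 94.9 and 62.4 FPKM at E10.5. Aurkb, the kinase of the complex, was 1.76-fold higher at E11.5 and 2.10-fold higher at E10.5, and Incenp, its scaffold, 1.78-fold and 2.0-fold higher. The ratio of Aurkb to Incenp FPKM stayed between 1.91 and 2.10 across the 4 groups. Other partner ratios varied more. Spc24 to Spc25 spanned 1.43 to 2.44, Aurka to Tpx2 0.592 to 0.948, Kif23 to Racgap1 0.460 to 0.792, and Smc2 to Smc4 0.454 to 0.618. None of the 4 passenger complex genes passed. Before adjustment, p was under 0.05 for 4 of them at E11.5 and for 2 at E10.5 in the authors' deposited tables.

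The 10 kinesins had a median log2 fold change of 0.95 at E11.5 and 1.26 at E10.5. Kif11, the motor that pushes the spindle poles apart, had 65.8 FPKM in S/G2/M cells and 30.3 FPKM in G1 cells at E11.5 (2.17-fold, q = 0.146 in the authors' deposited table) and 49.0 and 18 FPKM at E10.5 (2.72-fold, q = 0.0101). It was the single kinesin that rose, at E10.5. Its gene lies on chromosome 19 (37376403 to 37421859, mm10). Kif4, a chromosome arm motor on the X chromosome, was 2.30-fold higher at E11.5 and 2.63-fold higher at E10.5, where its q was 0.0558 in the authors' deposited table used here and 0.0240 in the one that lists both groups the other way round. Kif14, which recruits citron kinase to the midbody, was the least abundant member, with 9.61 and 4.08 FPKM in S/G2/M and G1 cells at E11.5 and 7.17 and 3.12 FPKM at E10.5.

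Some kinesins had unlike folds at the 2 ages, a contrast that the group values do not allow to be tested. Kif2c, a microtubule depolymerase that corrects attachments, had 17.5 FPKM in S/G2/M cells and 18.7 FPKM in G1 cells at E11.5, against 22.4 and 10.1 FPKM at E10.5, where it was 2.21-fold higher. Kif18b was 1.45-fold higher at E11.5 and 2.56-fold higher at E10.5. Kif20a, a midzone motor, was 2.5-fold higher at E10.5 but had an unadjusted p of 0.0609 in the authors' deposited table, against 5e-05 for Kif11 at 2.72-fold. Kif23, part of centralspindlin, was 1.94-fold and 2.61-fold higher at E11.5 and E10.5, Kif22 1.94-fold and 2.08-fold, Kif15 1.42-fold and 1.74-fold, and Kif20b 1.98-fold and 1.63-fold.

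Of the genes for the central spindle and cytokinesis, Prc1, which bundles the antiparallel microtubules of the midzone, rose at E10.5. It had 39.7 FPKM in S/G2/M cells and 16.8 FPKM in G1 cells at E11.5 (2.37-fold, q = 0.229 in the authors' deposited table), and 38.6 and 10.52 FPKM at E10.5 (3.67-fold, q = 0.0101). The S/G2/M levels of the 2 ages were close, and the G1 level was lower at E10.5. Exons of Prc1 overlap those of Rccd1 on the opposite strand, and reads of the pair could not be told apart without strand. The same holds for Kif4 with Pdzd11, Kif20a with Cdc23, Nusap1 with Oip5 and Ncapg with Lcorl. Ect2, which activates RhoA at the furrow, was 2.02-fold higher at E11.5 and 1.90-fold higher at E10.5, its partner Racgap1 1.89-fold and 1.87-fold, and Anln, which encodes anillin, 1.42-fold and 1.76-fold. None of these 3 passed.

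The spindle microtubule proteins were all higher in S/G2/M cells, and none passed. Hmmr, a spindle pole protein, had 33.1 and 14.5 FPKM in S/G2/M and G1 cells at E11.5 and 31.5 and 13.7 FPKM at E10.5, nearly the same levels at both ages. Its q at E10.5 was 0.0511 in the authors' deposited table used here and 0.0499 in the one with the groups the other way round. Tpx2, which nucleates spindle microtubules, was 1.80-fold higher at E11.5 and 2.01-fold higher at E10.5, Nusap1 2.05-fold and 1.71-fold, Ckap2 1.75-fold and 1.7-fold, and Ckap2l 1.48-fold and 2.5-fold.

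Condensin genes, which shape mitotic chromosomes, had some of the smaller differences. Smc2 had 35.8 FPKM in S/G2/M cells and 31.6 FPKM in G1 cells at E11.5 (1.13-fold) and 31.6 and 21 FPKM at E10.5 (1.51-fold). Smc4 had 78.8 and 56.4 FPKM at E11.5 (1.4-fold) and 66.0 and 34.0 FPKM at E10.5 (1.94-fold, q = 0.0893 in the authors' deposited table). Ncapd2 was 1.5-fold higher at E11.5 and 1.17-fold higher at E10.5, Ncaph 1.47-fold and 1.75-fold, and Ncapg 1.89-fold and 1.56-fold, with none passing. Top2a, the topoisomerase that untangles sister chromatids, rose at both ages. It had 143 FPKM in S/G2/M cells and 58.1 FPKM in G1 cells at E11.5 (2.47-fold, q = 0.0102 in the authors' deposited table) and 128 and 51.5 FPKM at E10.5 (2.48-fold, q = 0.0256). Its gene lies on chromosome 11, and both S/G2/M values were above both G1 values.

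Ube2c, the ubiquitin-conjugating enzyme of the anaphase-promoting complex, was the most abundant member in every group. It had 803 FPKM in S/G2/M cells and 330.1 FPKM in G1 cells at E11.5 (2.43-fold, q = 0.0383 in the authors' deposited table) and 635 and 238 FPKM at E10.5 (2.66-fold, q = 0.0101). Espl1, which encodes separase, had 15.2 and 5.48 FPKM in S/G2/M and G1 cells at E11.5 (2.77-fold, q = 0.0650 in the authors' deposited table) and 9.27 and 4.56 FPKM at E10.5 (2.03-fold). Pttg1, which encodes the separase inhibitor securin, did not follow it. It had 10.9 FPKM in S/G2/M cells and 15.3 FPKM in G1 cells at E11.5, and 23.4 and 18 FPKM at E10.5, with unadjusted p of 0.510 and 0.556 in the authors' deposited tables. Cdca3, which promotes destruction of the Wee1 kinase, was 1.23-fold and 1.55-fold higher at E11.5 and E10.5.

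Across the 50 genes, the phase differences at the 2 ages had a Pearson correlation of 0.40 and a Spearman correlation of 0.39, beside 0.21 and 0.25 over the 11952 genes tested at both ages and above 0 in every group. Genes are not independent replicates, and the 2 comparisons share no samples. At both ages 12 members (24.0%) were at least 2-fold higher in S/G2/M cells, against 1.27% of those 11952 genes. For 25 members (50%) the level was higher with p under 0.05 before adjustment at both ages, as listed by the authors' deposited tables, against 0.703% of those genes. In 41 members the 2 log2 fold changes differed by at most 0.5. They differed by more than 1 in Ndc80 (-1.47, E11.5 minus E10.5) and Kif2c (-1.24), and by 0.91 in Nuf2.

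**Figure D4:**
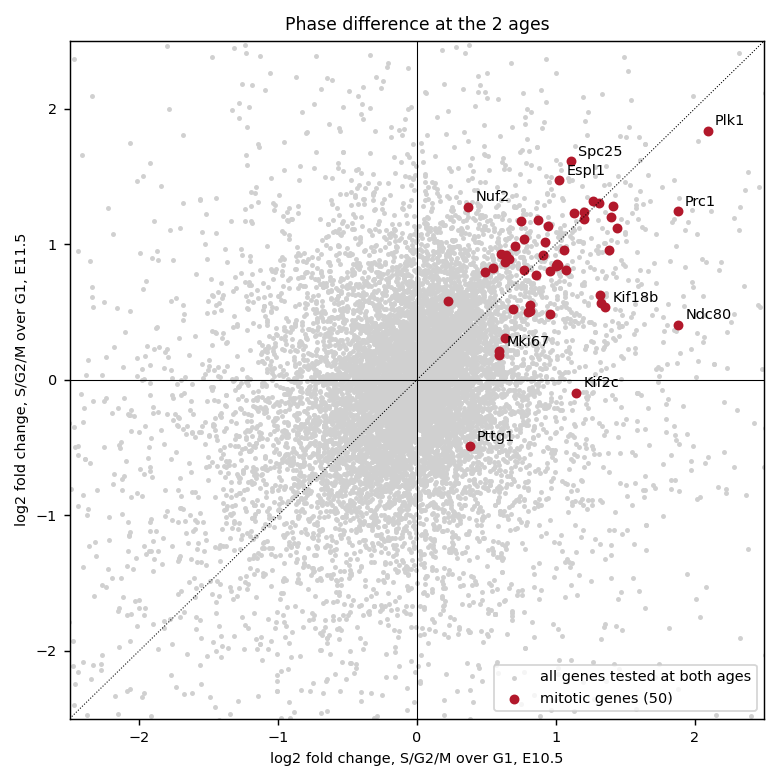
Log2 fold change of S/G2/M over G1 cells at E10.5 (horizontal) and E11.5 (vertical) for the 50 mitotic genes and for all genes tested at both ages, with axes limited to values between -2.5 and 2.5. Of the mitotic genes 48 lie above 0 on both axes, Kif2c and Pttg1 lie below the horizontal line, and Ndc80 and Nuf2 lie on opposite sides of the dotted line of equal values.

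Other genes of mitosis gave a similar picture with a wider spread. Of 81 further mitosis genes with a row, 68 were higher in S/G2/M cells at E11.5 and 73 at E10.5. Over all tested genes, 46.0% and 47.1% were higher at these ages. The 81 had medians of 0.73 and 0.71 on the log2 scale. At E11.5, 2 of the 81 rose, against 0.137% of all tested genes called higher. Cdca5, which encodes sororin, had 44.7 and 8.83 FPKM in S/G2/M and G1 cells (5.06-fold, q = 0.0242 in the authors' deposited table), and Aspm, a spindle pole protein, had 21.5 and 7.36 FPKM (2.92-fold, q = 0.0102). At E10.5, 1 of the 81 rose, against 0.193% of all tested genes called higher. It was the mitotic kinase gene Cdk1, with 42.0 FPKM in S/G2/M cells and 15.6 FPKM in G1 cells (2.69-fold, q = 0.0256 in the authors' deposited table). Ccnb1, which encodes the cyclin B1 partner of Cdk1, was 2.08-fold higher at E11.5 and 2.15-fold higher at E10.5, Ccna2 1.80-fold and 1.61-fold, and Cdc20, the activator of the anaphase-promoting complex, 2.07-fold and 1.64-fold, and none of these passed. Genes of DNA replication, 40 in all, had medians of only 0.25 and 0.26, and none passed at either age. Of those, 2 at E11.5 and 4 at E10.5 were higher with p under 0.05 before adjustment, per the authors' deposited tables. Over all tested genes these shares were 3.32% and 2.40%. Among 14 regulators of G1 progression none rose or fell at E11.5, where the authors' deposited table gave p under 0.05 before adjustment for 2, and 1 fell in S/G2/M cells at E10.5, Cdkn1c.

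Between the ages 1 of the 50 mitotic genes, Mki67, rose, and no member fell. In S/G2/M cells the median log2 fold change (E11.5 over E10.5) of the 50 was 0.15, beside 0.03 over all tested genes, 36 members were higher, against 52.1% of tested genes, and 1 member rose, against 2.14% called higher and 1.93% called lower. In G1 cells the median was 0.30, beside 0.02, 33 members were higher, against 50.9%, and 1 member rose, against 3.0% called higher and 1.45% called lower. In each phase 5 members were higher at E11.5 with p under 0.05 before adjustment in the authors' deposited tables, against 7.79% of tested genes in S/G2/M cells and 8.96% in G1 cells. Both counts are near the share over all genes.

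Mki67 encodes Ki-67, the protein that coats mitotic chromosomes and is used as a proliferation marker. It had 80.9 FPKM at E11.5 and 39.2 FPKM at E10.5 in S/G2/M cells (2.06-fold, q = 0.00971 in the authors' deposited table), and 68.6 FPKM at E11.5 and 24.8 FPKM at E10.5 in G1 cells (2.77-fold, q = 0.0300). Both E11.5 groups lay above both E10.5 groups. Its phase difference was small by comparison, 1.16-fold at E11.5 and 1.51-fold at E10.5, and did not pass. Macrophage markers moved the same way, since 6 of 12 rose with age in S/G2/M cells and 12 of 12 in G1 cells. Their sum was 634 FPKM at E11.5 and 174 FPKM at E10.5 in S/G2/M cells, and 2225 FPKM at E11.5 and 284 FPKM at E10.5 in G1 cells. Of the sort and cluster genes, 4 of 8 rose with age in S/G2/M cells (Pecam1, Kit, Runx1 and Cd34), with a list median of 1.21 on the log2 scale, and 3 of 7 tested rose in G1 cells (Pecam1, Runx1 and Ptprc), with a median of 1.10. Pecam1 had 73.2 FPKM at E11.5 and 29.7 FPKM at E10.5 in S/G2/M cells, and 113 and 38.1 FPKM in G1 cells. Kit had 30.0 FPKM at E11.5 and 12.6 FPKM at E10.5 in S/G2/M cells, and 17.1 and 14.4 FPKM in G1 cells, where it did not pass. Runx1, a transcription factor of the clusters, had 40.9 FPKM at E11.5 and 10.1 FPKM at E10.5 in S/G2/M cells, and 27.0 and 9.46 FPKM in G1 cells. Mesenchymal markers went the other way, with 5 of 10 lower at E11.5 in each phase by the same threshold and none higher, and sums of 62.1 FPKM at E11.5 and 254 FPKM at E10.5 in S/G2/M cells and of 63.5 and 232 FPKM in G1 cells. Of the erythroid markers 2 fell with age in S/G2/M cells and none passed in G1 cells. The part of any of these in the Mki67 difference was not tested.

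In G1 cells every kinesin was higher at E11.5 than at E10.5, against 50.9% of all tested genes. The kinesin median was 0.54 on the log2 scale, beside 0.02 over all tested genes, but no kinesin passed. The larger differences were those of Kif18b, with 16.2 FPKM at E11.5 and 7.29 FPKM at E10.5 (2.22-fold), Kif2c, with 19.0 and 9.64 FPKM (1.97-fold), and Kif11, with 30.7 and 17.2 FPKM (1.79-fold). Ndc80 was also higher in E11.5 G1 cells, with 18 FPKM against 6.92 FPKM at E10.5 (2.60-fold, q = 0.224 in the authors' deposited table), and Smc4 had 57.2 and 32.4 FPKM (1.76-fold, q = 0.176). Neuronal markers were lower at E11.5 in the same cells, where 4 of 12 fell. Their sums were 174 FPKM at E11.5 and 519.8 FPKM at E10.5. All 12 macrophage markers rose there, with sums of 2225 FPKM at E11.5 and 284 FPKM at E10.5, and 5 of 10 mesenchymal markers fell. The part of these markers in the differences was not tested. The spindle checkpoint genes had a median of -0.23 in G1 cells, and 6 of the 8 centromere and kinetochore genes were lower at E11.5 there. In S/G2/M cells, Espl1 had 15.8 FPKM at E11.5 and 9.21 FPKM at E10.5 (1.71-fold), Nuf2 32.7 and 19.4 FPKM (1.68-fold), Nusap1 57.7 and 35.4 FPKM (1.63-fold) and Kif20b 16.3 and 10.4 FPKM (1.57-fold), none passing, though for each the authors' deposited table gave p under 0.05 before adjustment. In these S/G2/M cells 5 of the 50 members were higher with such a p, near the 7.79% of all tested genes. Pttg1 had 11.3 FPKM at E11.5 and 23.2 FPKM at E10.5 in S/G2/M cells, with an unadjusted p of 0.147 in the authors' deposited table.

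**Figure D5:**
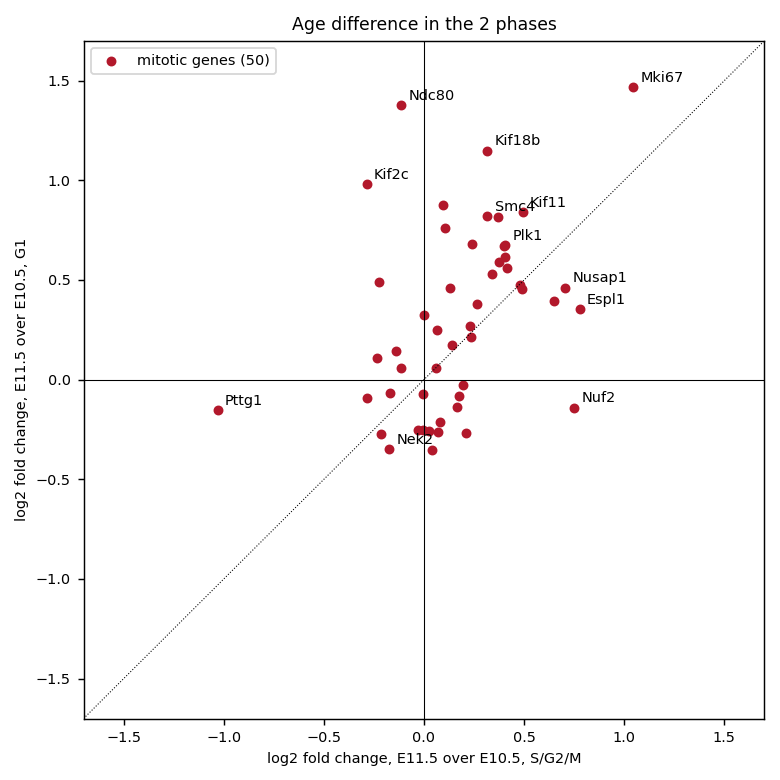
Log2 fold change of E11.5 over E10.5 in S/G2/M cells (horizontal) and in G1 cells (vertical) for the 50 mitotic genes, with a dotted line of equal values. Mki67 lies alone at the upper right, at 1.05 and 1.47, while most genes lie within 0.5 of 0 in S/G2/M cells.

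Of the regulators that act on mitotic genes, Foxm1, which encodes a transcription factor of the G2 programme, rose in G1 cells, with 28.1 FPKM at E11.5 and 10.9 FPKM at E10.5 (2.58-fold, q = 0.0369 in the authors' deposited table), and had 36.7 and 27.5 FPKM in S/G2/M cells. Mybl2, which encodes B-Myb, had 11.9 FPKM at E11.5 and 8.55 FPKM at E10.5 in G1 cells, and 18.8 and 19.2 FPKM in S/G2/M cells. Between the phases neither gene passed. The authors' deposited tables gave Foxm1 q-values of 0.866 at E11.5 and 0.0804 at E10.5 (unadjusted p 0.374 and 0.00065). Those of Mybl2 were 0.761 and 0.349 (unadjusted p 0.135 and 0.00685). Foxm1 was the single one of the 81 further mitosis genes that rose in G1 cells, against 3.0% of all tested genes called higher there. Ccnb2, which encodes another B-type cyclin, was the single one that fell in S/G2/M cells, against 1.93% of all tested genes called lower there. It had 62.1 FPKM at E11.5 and 140.1 FPKM at E10.5 (2.26-fold lower, q = 0.0239 in the authors' deposited table). Neither count exceeds the share over all tested genes. Between the phases Ccnb2 had 59.9 FPKM in S/G2/M cells and 49.0 FPKM in G1 cells at E11.5, and 139.9 and 64.6 FPKM at E10.5, where its q was 0.0893 in the authors' deposited table.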

How the data were processed

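RNA of 12 sorted samples was sequenced. The submitters' processing notes name CASAVA 1.4, TopHat, Cuffdiff and mm10; the labels' protocols name bowtie 0.12.2 and mm8 instead. All 50 members' loci overlapped their gene in GENCODE M21 (GRCm38), so coordinates are given as mm10 and count from 1. Per the file headers, the authors deposited 6 tables with 1 FPKM value for each of 2 groups, and a p-value and q-value from the authors' test. The S/G2/M group, named G2 there, was identified as the other sorted group of its age. Scaling differs between tables, and the level of a member in 1 group varied by a median of 1.11% to 5.09% between its 3 tables. The largest spread of a single member was 13.9%, in E11.5 G1 cells.

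Fold changes are ratios of FPKM without a pseudocount. Calls use the authors' q-values, since no column holds single samples; the count test foreseen for values per sample was therefore not run, and no interval or SD can be given. The members and lists were chosen with earlier results of these data known. All 50 members are named; of other lists, those that passed (at most 6 by fold), 7 regulators and 3 sort and cluster genes; the markers are given as sums and counts rather than by name. Members described at length, such as Ndc80, were picked after their values were seen. Calculations were tested on simulated data. Versions were 3.11.15 of Python, 2.4.6 of numpy, 2.3.3 of pandas and 3.10.9 of matplotlib.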

Additional observations from a re-analysis of the deposited data

How the results depend on the processing

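Under all alternatives run, the medians kept their sign and moved by less than 1.5 times on the fold scale. The median for age in S/G2/M cells, 0.15 on the log2 scale, was 0.08 when levels came from the phase tables. The counts of members called kept to within 1.5 times of those reported, except at q-value thresholds of 0.01 and 0.085. At a q-value threshold of 0.01 the count was 0 at E11.5 and 0 at E10.5 for the phases and 0 for age in G1 cells; the lowest q-value of the phase tables used was 0.0102 at E11.5 and 0.0101 at E10.5, so no gene could pass there. In the authors' E10.5 table in the other order the lowest was 0.00999, and Plk1, Kif11, Prc1, Top2a and Ube2c had it. At a threshold of 0.085, 8 members rose in S/G2/M cells at E10.5. With the authors' tables in the other order, 7 rose at E10.5, the added ones being Kif4 and Hmmr, and 3 at E11.5. Of 600 values of single members, 588 kept direction and call, but many of these could not change. The 200 with a pseudocount of 1 FPKM could not change sign. A call could change only in the authors' tables in the other order, where 98 values kept direction and call and 2 gained a call. The 10 that changed sign were all age differences close to 0. In S/G2/M cells, centring gave -0.0182 for Ttk, -0.00195 for Sgol1 and -0.0408 for Kif15, and levels from the phase tables gave -0.0450 for Ttk, -0.0230 for Sgol1, -0.0610 for Kif15, -0.0116 for Racgap1 and -0.00098 for Tpx2. In G1 cells, those tables gave -0.0274 for Bub1 and -0.0252 for Racgap1. No paired analysis was possible because the tables hold 1 value per group, and for the same reason no replicate could be left out. The depth, and what it limits, is unknown.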

Other observations

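Of 14 regulators of G1 progression, 4 passed in at least 1 comparison, a share not computed over all tested genes. Between the ages, 1 rose and 2 fell in S/G2/M cells, against 2.14% and 1.93% of all tested genes. In G1 cells none rose and 2 fell, against 3.0% and 1.45%. Between the phases 1 fell, at E10.5, against 0.462% called lower. Cdkn1c, which encodes the cyclin-dependent kinase inhibitor p57, had 157.7 FPKM in S/G2/M cells and 352 FPKM in G1 cells at E10.5 (2.23-fold lower, q = 0.0101 in the authors' deposited table), and 94.5 and 121 FPKM in those at E11.5 (q = 0.859). In G1 cells it fell with age, with 123 FPKM at E11.5 and 336 FPKM at E10.5 (2.74-fold lower, q = 0.00273 in the authors' deposited table). Of 12 neuronal markers, 7 also fell in S/G2/M cells at E10.5 and 4 fell with age in G1 cells, and none rose in either comparison. With age in G1 cells, 5 of 10 mesenchymal markers also fell and 12 of 12 macrophage markers rose. The part of any of these markers in the Cdkn1c differences was not tested. Cdk6, a kinase of the G1 phase, rose with age in S/G2/M cells, with 59.9 FPKM at E11.5 and 25.6 FPKM at E10.5 (2.34-fold, q = 0.0265 in the authors' deposited table), and had 20.97 and 18.88 FPKM in G1 cells (q = 0.909). Ccnd2, which encodes cyclin D2, fell with age in S/G2/M cells, with 59.3 FPKM at E11.5 and 128 FPKM at E10.5 (2.15-fold lower, q = 0.00308 in the authors' deposited table). Gas1, a growth arrest gene, fell in both phases, with 10.9 FPKM at E11.5 and 46.3 FPKM at E10.5 in S/G2/M cells and with 5.41 and 35.8 FPKM in G1 cells (q = 0.00971 and 0.00273 in the authors' deposited tables). Of the mesenchymal markers 5 of 10 also fell with age in each phase. So did 2 of 10 erythroid markers in S/G2/M cells and 4 of 12 neuronal markers in G1 cells. Of 12 macrophage markers, 6 rose in S/G2/M cells and 12 in G1 cells. The part of any of these markers in the Gas1 differences was not tested.

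DNA replication genes, 40 in number, had medians below 0 between the ages on the log2 scale (E11.5 over E10.5). These were -0.16 in S/G2/M cells and -0.22 in G1 cells. The medians over all tested genes were 0.03 and 0.02, and those of the 50 mitotic genes 0.15 and 0.30. No replication gene passed in the authors' deposited tables. Before adjustment, p was under 0.05 for 2 that were lower and 1 that was higher in S/G2/M cells, and for 4 that were lower in G1 cells. Of all tested genes, 7.79% were higher with such a p in S/G2/M cells. The share that was lower was not computed in either phase, so the counts of lower genes have no share beside them.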
